A study of Mus musculus with 9 samples.

Results

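The fibrillar collagens described here are the products of 9 genes, Col1a1, Col1a2, Col2a1, Col3a1, Col5a1, Col5a2, Col5a3, Col11a1 and Col11a2, and all of their probe sets in the platform annotation were used. They had 18 of the 45037 probe sets that remained after control sets were left out, and 9 of 18194 named genes. The 9 arrays come from 2 fibroblast lines that were derived from E13.5 mouse embryos and became immortal spontaneously in culture. One line lacks Suv420h1, a histone H4 methyltransferase that the annotation lists as Kmt5b. Its RNA was read on 1 array after reconstitution with a Suv420h1-GFP fusion and on 2 arrays without the enzyme, untransduced and with GFP. The other line is wild type and received its constructs by lentivirus. On 3 of its arrays the cells carried PREX2, a Rac exchange factor, cut short by a stop codon (K278*, E824* and Q1430*), on 1 they carried PREX2 wt, the full-length form, and 2 arrays were controls with GFP and with LacZ. Each genotype is a single immortalised line, so genotype and line cannot be told apart. The labels do not say whether arrays within a group represent separate cultures, and no construct was repeated within a group; p-values therefore cover the spread among these arrays, which may be technical.

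Fibrillar collagens are secreted triple helices that assemble side by side into the banded fibrils of skin, tendon, bone and cartilage. Type I, made of Col1a1 and Col1a2 chains, and type III, made of Col3a1 chains alone, form the bulk of fibrils in soft connective tissue. Type II, made of Col2a1 chains, is the main collagen of cartilage. Types V (Col5a1, Col5a2 and Col5a3 chains) and XI (Col11a1, Col11a2 and a Col2a1 product) lie inside fibrils, start their assembly and limit their width, and type XI is best known from cartilage. Fibroblasts are the main producers of types I, III and V.

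Values are MAS5 signals, a linear measure of a probe set's brightness in arbitrary units, which differ between probe sets for reasons other than abundance, so genes are not ranked against each other. Median signals of the arrays lay between 56.3 and 68.7 and the highest signals between 38169 and 45456. Changes were tested on log2(signal + 25) in limma, over the 19090 probe sets (10177 genes) whose mean signal was at least 100, with Benjamini-Hochberg adjustment over all of them and a threshold of 0.05. A gene was represented by its brightest tested probe set. Of the 18 collagen probe sets 16 were tested, and 8 of the 9 genes had at least 1. The targeted gene was read by 5 probe sets, of which 1 separated the null arrays from all others, with 150.3 on the reconstituted array and 8.85 and 17.3 on the null arrays, against 118 to 182 in the wild-type line. The control arrays with GFP and LacZ differed by more than 2-fold at 1301 tested probe sets, while for the 2 null arrays that number was 81.

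Col11a1, Col2a1 and Col5a3, 3 of the fibrillar collagen genes, rose in the null line relative to wild-type control vector, and 0 of the 8 tested genes fell. The genes of the abundant chains of types I, III and V (Col1a1, Col1a2, Col3a1, Col5a1 and Col5a2) did not pass the test. Over all genes 10.2% were called higher and 10% lower. By probe set 4 of 16 were called higher and 0 lower, where 10.7% of all tested probe sets were higher and 8.94% lower. Both Col11a1 probe sets and the Col2a1 probe set averaged under 100 over the 6 wild-type-line arrays and so were tested only because of their signals in the null line; their share in these counts is therefore no support for a shift of the family. The median log2 change was 0.38 over the 8 collagen genes and 0.19 over the 6 that averaged at least 100 in the wild-type line, beside -0.027 over all genes.

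**Figure D1:**
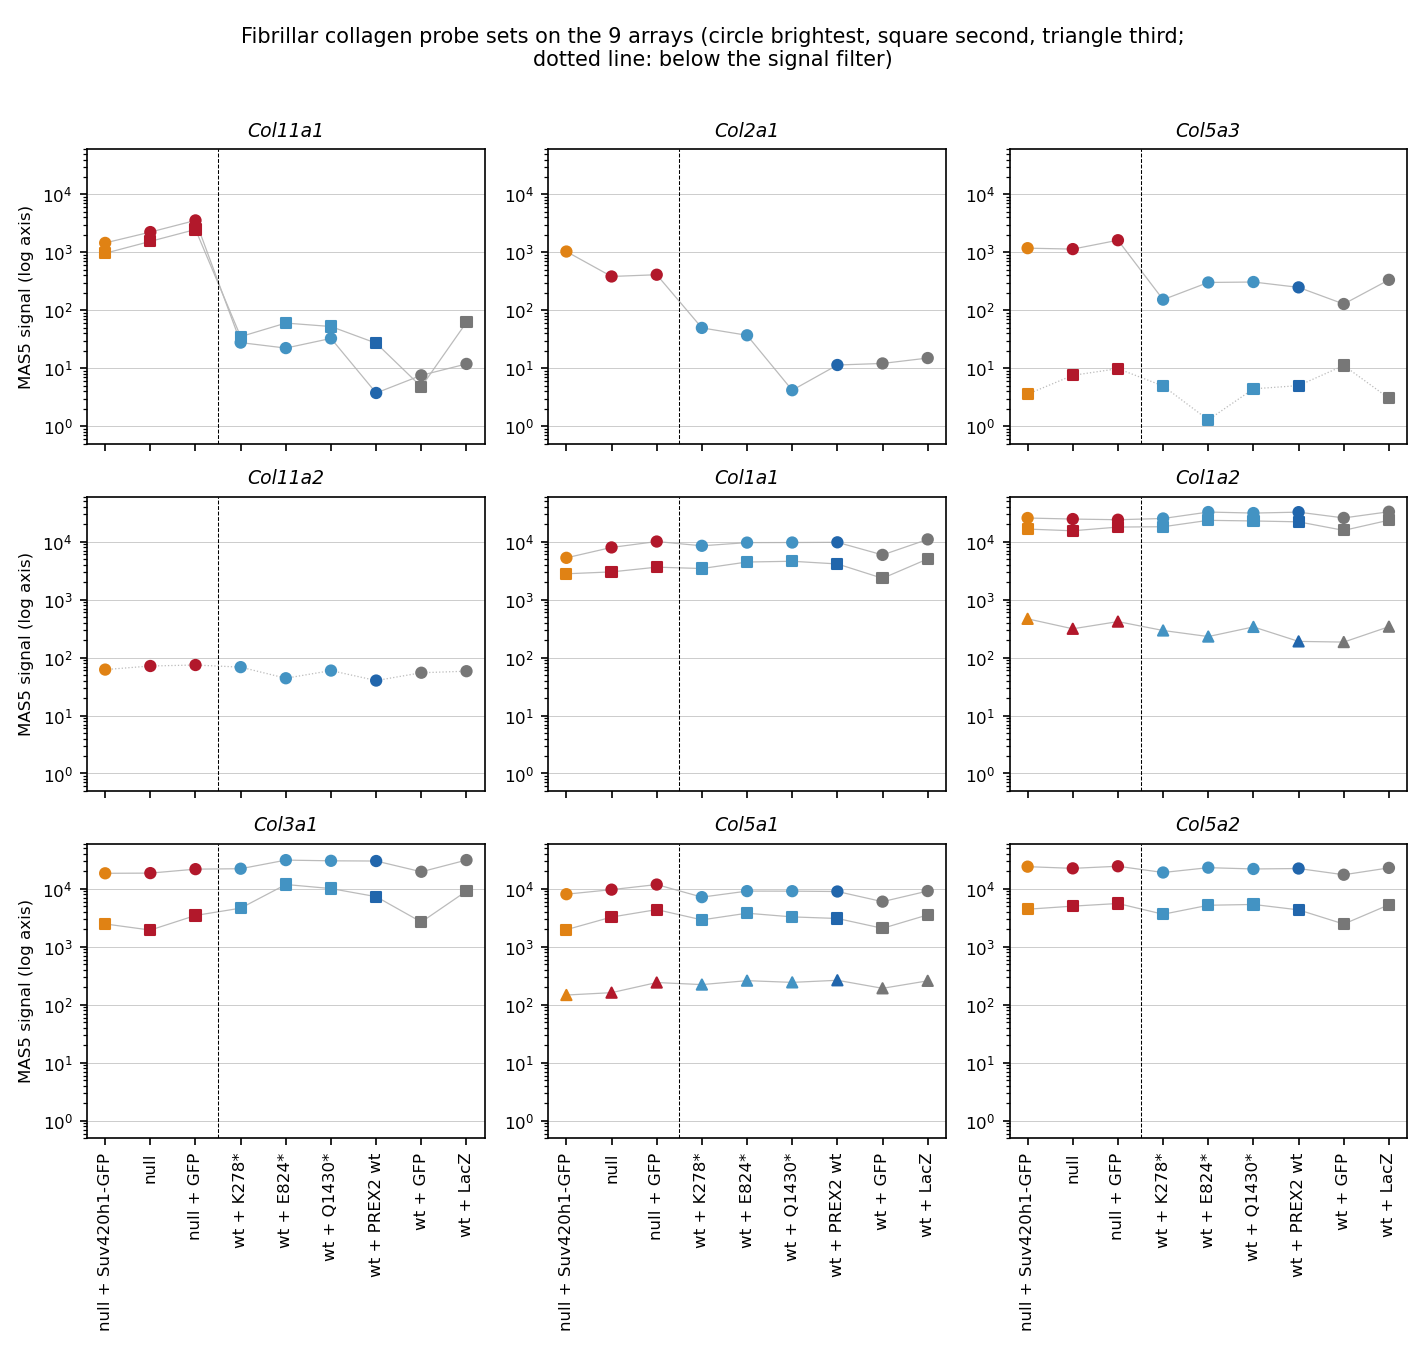
MAS5 signals (log axis) of all 18 fibrillar collagen probe sets on each array, with the 3 null-line arrays left of the dashed line and the 6 wild-type-line arrays right of it. Orange is the reconstituted array, red the null arrays, light blue truncated PREX2, dark blue PREX2 wt and grey the controls. Col11a1, Col2a1 and the brighter Col5a3 probe set lie higher in the null line on every array, with Col11a1 at 1456 or above in the null line, against 32.8 or below in the wild-type line at its brightest probe set.

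Col11a1 encodes the alpha 1 chain of type XI collagen. Its brightest probe set read 1456 on the reconstituted array and 2239.7 and 3559.5 on the null arrays (untransduced and GFP), against 27.8, 22.3 and 32.8 with K278*, E824* and Q1430*, 3.75 with PREX2 wt, and 7.57 and 11.9 on the GFP and LacZ control arrays. The second probe set read 965, 1549 and 2482 on the same null-line arrays, against 35.2, 60.3, 52.6, 27.1, 4.80 and 62.1 on the wild-type-line arrays in that order. The lowest null-line signal was 44.4 times the highest wild-type-line signal at the first and 15.5 times at the second, so the lines did not overlap at either. The log2 change between the null line and control vector was 6.36 (SE 0.26, 95% interval 5.76 to 6.96, 2 against 2 arrays, limma adjusted p = 2.19e-05) at the brightest probe set. At the second it was 5.28 (SE 0.49, adjusted p = 0.000691). Wild-type signals near 0 make the size of the Col11a1 change depend on the offset, with 7.60 at an offset of 5 and 4.74 at an offset of 100. In bulk RNA, fewer cells that express a gene and less of its RNA per cell cannot be told apart.

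Col2a1 encodes the chain of type II collagen. It had 1 probe set, which read 1034 on the reconstituted array and 384 and 412 on the null arrays, against 49.8, 37.1 and 4.19 with the truncated forms, 11.4 with PREX2 wt, and 12.1 and 15.0 on the control arrays. The lowest null-line signal was 7.72 times the highest of the wild-type line, and the reconstituted array held the highest value of all 9. The log2 change of Col2a1 between the null line and control vector was 3.45 (SE 0.42, 95% interval 2.46 to 4.44, limma adjusted p = 0.00214). With other offsets it was 4.44 (offset 5) and 2.13 (offset 100), and the call held in both.

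Col5a3 encodes the alpha 3 chain of type V collagen. Its brighter probe set read 1182 on the reconstituted array and 1139 and 1621 on the null arrays, against 153, 303 and 308 with the truncated forms, 249 with PREX2 wt, and 129 and 336 on the control arrays. The 2 lines did not overlap, with the lowest null-line signal 3.39 times the highest wild-type-line signal. The log2 change was 2.56 (SE 0.46, 95% interval 1.49 to 3.62, limma adjusted p = 0.00943). The Col5a3 call was lost when the GFP null array was left out, with a log2 change of 2.31. A second Col5a3 probe set read between 1.29 and 11.2 on all 9 arrays and was not tested. Over the tested collagen probe sets, 4 of 16 had signals of the 3 null-line arrays above all 6 of the wild-type line (21.4% of all tested probe sets did) and 0 had them below (19.1%). Of these 4, both Col11a1 probe sets and the Col2a1 one were tested only because of their null-line signals. The count is therefore no support for a shift of the family.

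Col11a2 encodes the alpha 2 chain of type XI collagen, the partner of Col11a1 in its trimer. Its only probe set was dim in both lines and was not tested, with 62.0 on the reconstituted array and 71.5 and 74.4 on the null arrays, against 68.4, 44.0 and 59.6 with the truncated forms, 40.1 with PREX2 wt, and 54.7 and 58.2 on the controls. The 2 lines overlapped at Col11a2.

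Promoter sequence was at hand for 6 of the 9 genes, and Col1a1, Col2a1 and Col5a2 are named only. The 250 bases before the RefSeq gene start (assembly GRCm38.p6) are shown first for Col11a1 (chr3:114030290-114030539, plus strand) and Col5a3 (chr9:20815068-20815317, minus strand), which rose together in the null line, and further below for 2 abundant chains that did not. Each is written 5′ to 3′ on the gene's own strand. Capitals mark matches on either strand to CCAAT (reverse ATTGG, the box bound by NF-Y), GGGCGG (reverse CCGCCC, the GC box bound by Sp1) and TATAAA (reverse TTTATA, the TATA box); no match overlaps another in the windows shown.
Col11a1: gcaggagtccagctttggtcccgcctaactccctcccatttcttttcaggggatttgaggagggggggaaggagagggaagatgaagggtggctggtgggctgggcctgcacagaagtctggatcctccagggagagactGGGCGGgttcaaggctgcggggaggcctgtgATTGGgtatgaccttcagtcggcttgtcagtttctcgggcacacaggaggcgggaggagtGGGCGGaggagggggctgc
Col5a3: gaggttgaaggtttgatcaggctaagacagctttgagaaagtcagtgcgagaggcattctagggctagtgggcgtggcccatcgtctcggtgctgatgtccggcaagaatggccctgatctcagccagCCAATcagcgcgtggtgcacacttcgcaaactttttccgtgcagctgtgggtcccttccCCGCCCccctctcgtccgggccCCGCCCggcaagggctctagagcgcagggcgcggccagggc
Both windows hold 1 CCAAT box and 2 GC boxes and no TATA box. The CCAAT box begins 79 bases before the gene start in Col11a1, in reverse, and 122 bases before it in Col5a3. The GC boxes begin 110 and 19 bases before the start in Col11a1, and 63 and 41 bases before it in Col5a3. Of 32851 windows of the same length in the table, 33.8% held a CCAAT box, 32.7% a GC box and 12.4% a TATA box. The GC content was 62.4% in Col11a1 and 62.8% in Col5a3, beside a median of 52.4% over all windows.

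Type I collagen was bright in both lines. The brightest Col1a1 probe set read 5254 on the reconstituted array and 7939.9 and 10036 on the null arrays, against 8472, 9616 and 9653 with the truncated forms, 9728 with PREX2 wt, and 5901 and 10927 on the GFP and LacZ control arrays. The control arrays alone spanned both null arrays. The log2 change of Col1a1 was 0.15 (SE 0.27, limma adjusted p = 0.73), and -0.05 at its second probe set. The brightest Col1a2 probe set read 25537 on the reconstituted array and 24509 and 23872 on the null arrays, against 25072, 32374 and 31090.3 with the truncated forms, 32246 with PREX2 wt, and 25623 and 32781 on the controls. The log2 change of Col1a2 was -0.26 (SE 0.16, limma adjusted p = 0.282). Its second probe set moved by -0.21 and its dimmest one, with signals of 185 to 466, by 0.48, and neither passed.

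Type III and the main type V chains gave a mixed picture. The brightest Col3a1 probe set read 18541 on the reconstituted array and 18682 and 21870.1 on the null arrays, against 22245, 31313 and 30448 with the truncated forms, 30191 with PREX2 wt, and 19699 and 31368 on the controls. Its second probe set read 2479.5, 1945 and 3475 on the null-line arrays in the same order, against 4643, 11882, 10114, 7328, 2676 and 9147 in the wild-type line. In the null line against control vector the log2 change of Col3a1 was -0.30 (SE 0.24) at the first and -0.92 (SE 0.64) at the second, with limma adjusted p-values of 0.43 and 0.35. The brightest Col5a1 probe set read 8084 on the reconstituted array and 9688 and 11858 on the null arrays, against 7196, 9142 and 9121 with the truncated forms, 8997 with PREX2 wt, and 6014 and 9163 on the controls. Its log2 change was 0.53 (SE 0.22, limma adjusted p = 0.138), while the other probe sets of Col5a1 gave 0.47 and -0.15. Col5a2 lies next to Col3a1 on chromosome 1, with no other protein-coding gene between them. Its brightest probe set read 24138 on the reconstituted array and 22566 and 24530.1 on the null arrays, against 19139.7, 23199.8 and 22021 with the truncated forms, 22415 with PREX2 wt, and 17509 and 22991 on the controls, a log2 change of 0.23 (SE 0.15, limma adjusted p = 0.323).

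The promoter windows of Col1a2 (chr6:4505368-4505617, plus strand) and Col3a1 (chr1:45311288-45311537, plus strand) are shown for the abundant chains, with the same marks.
Col1a2: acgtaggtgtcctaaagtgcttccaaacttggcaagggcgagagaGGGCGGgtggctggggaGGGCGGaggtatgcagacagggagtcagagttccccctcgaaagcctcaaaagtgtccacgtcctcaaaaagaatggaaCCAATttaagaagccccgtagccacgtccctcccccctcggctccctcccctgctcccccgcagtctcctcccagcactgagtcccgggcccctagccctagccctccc
Col3a1: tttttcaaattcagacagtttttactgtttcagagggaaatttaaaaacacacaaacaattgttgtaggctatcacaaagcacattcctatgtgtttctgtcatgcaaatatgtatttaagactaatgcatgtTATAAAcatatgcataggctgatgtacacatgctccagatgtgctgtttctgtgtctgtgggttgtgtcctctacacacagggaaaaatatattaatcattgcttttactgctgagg
The Col1a2 window resembles those of Col11a1 and Col5a3 in its motifs, with 1 CCAAT box beginning 109 bases before the start, GC boxes at 205 and 188 bases, and a GC content of 62.0%. The Col3a1 window has neither a CCAAT nor a GC box, 1 TATA box beginning 117 bases before the start, and a GC content of 35.2%. Of the 2 windows not shown, Col5a1 and Col11a2 hold 2 GC boxes each, at GC contents of 76.4% and 57.6%, and Col11a2 also a TATA box. These matches describe letters in a window and say nothing of binding.

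Calls among the abundant chains turned on single wild-type arrays. Without the LacZ array 5 genes were called higher in the null line than in control vector, Col1a1 at 0.60 and Col5a1 at 0.83 being added, while the share of all genes called higher was 13.1%. Without the GFP control array the log2 change was -0.29 for Col1a1 and -0.63 for Col3a1, and 0 of these genes were called lower, against 9.62% of all genes. With the wild-type GFP and K278* arrays both absent, a choice made after seeing the data, Col1a2 fell by 0.44 and Col3a1 by 0.63 on the log2 scale and passed, where 21.5% of all genes were called lower.

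Setting all 3 null-line arrays against all 6 wild-type-line arrays uses the reconstituted array and the PREX2 arrays as well and shares arrays with the comparison above. Over all genes 18.1% were called higher and 19.9% lower, and by probe set 19.5% and 18.1%. Col11a1 was again higher (5.79, SE 0.18, limma adjusted p = 3.06e-06), as were Col2a1 (3.70, SE 0.30, adjusted p = 0.000145) and Col5a3 (2.36, SE 0.32, adjusted p = 0.00143). Of the 8 tested genes 3 were higher and 0 lower by their brightest probe sets, with Col11a1 and Col2a1 again tested only because of their null-line signals. Of the 6 genes that averaged at least 100 in the wild-type line, 1 was higher and 0 lower. The median log2 change was 0.21 over the 8 genes and -0.039 over the 6, beside -0.024 over all genes. The second Col3a1 probe set fell by 1.40 on the log2 scale (SE 0.45, limma adjusted p = 0.0438), while the brightest gave -0.46 (SE 0.17, adjusted p = 0.07). That call was lost without a filter on signal, without the intensity trend, and when either null array, the E824* array or the Q1430* array was left out. Without the GFP control array the brightest probe sets of Col1a1 (-0.37), Col1a2 (-0.31) and Col3a1 (-0.56) passed as lower in the null line. Without the K278* array Col1a2 (-0.32) and Col3a1 (-0.52) did, and without the LacZ array Col3a1 alone did (-0.42). In those fits 24%, 20.7% and 23.2% of all genes were called lower.

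**Figure D2:**
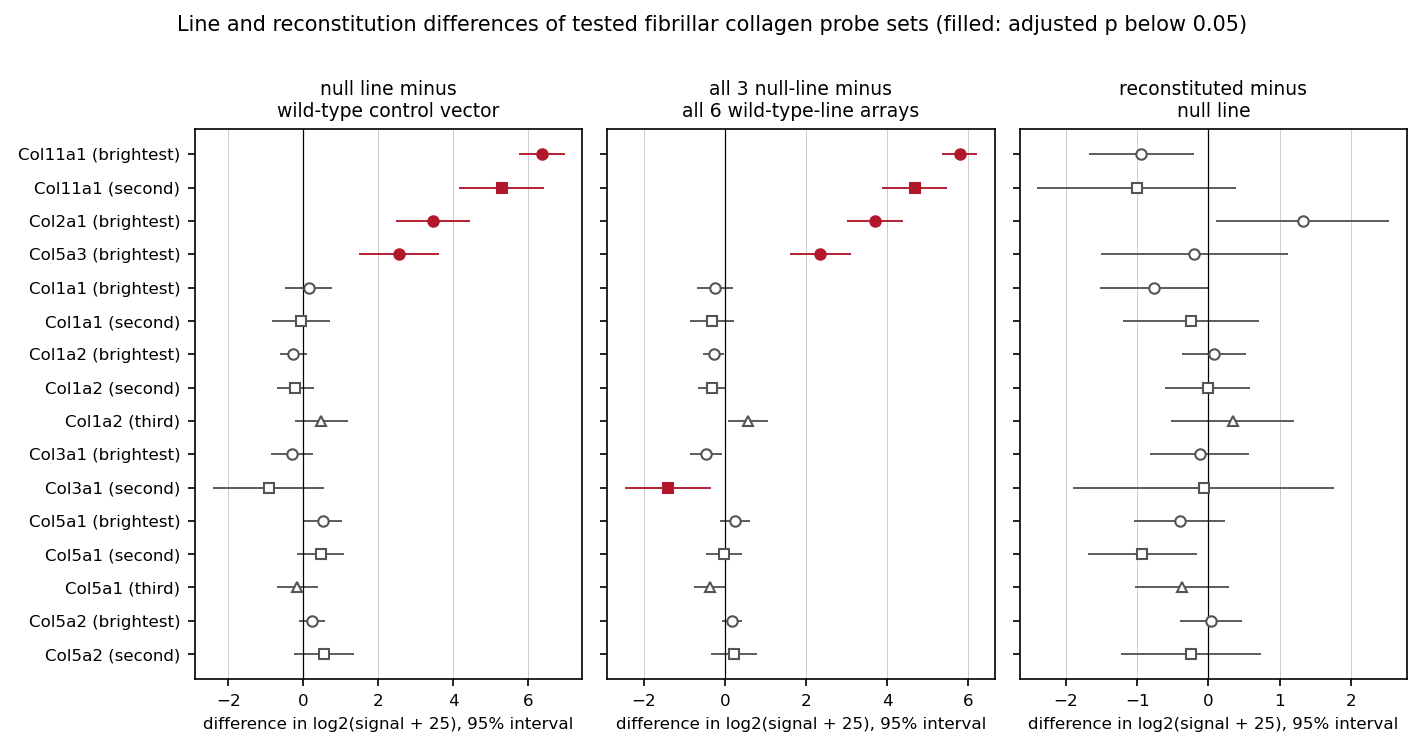
Differences in log2(signal + 25) with 95% intervals (x axis) for the 16 tested fibrillar collagen probe sets, filled where the limma adjusted p is below 0.05. Circles, squares and triangles are the brightest, the second and the dimmest tested probe set of a gene. The Col11a1, Col2a1 and Col5a3 probe sets stand at 2.36 or above in both line comparisons, and 0 probe sets pass for reconstitution.

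Adding the Suv420h1-GFP fusion back to the null line did not change a fibrillar collagen gene beyond the threshold, nor any other gene (0.0% of genes were called), with 1 array against 2. At an unadjusted p under 0.05 limma gave 621 of the 19090 probe sets, 3.25%, and 3 of the 16 collagen probe sets. Col11a1 differed by -0.94 (SE 0.32, 95% interval -1.68 to -0.21, unadjusted p = 0.0189 and adjusted p = 1.0 by limma) and Col2a1 by 1.33 (SE 0.52, interval 0.11 to 2.54, unadjusted p = 0.036). The reconstituted array thus read lower than both null arrays at Col11a1, 1456 against 2239.7 and 3559.5, and still above every wild-type-line array. The second Col5a1 probe set gave 1976 on the reconstituted array, against 3261 and 4384 on the null arrays (log2 difference -0.93, unadjusted p = 0.024 by limma). Col1a1 gave -0.76 (SE 0.33) and Col5a3 -0.20 (SE 0.56). In a fit of the 3 null-line arrays alone, which has 1 residual degree of freedom before moderation, 0.423% of all genes passed as higher, Col2a1 among them, and 0.796% as lower, Col11a1 and Col1a1 among them.

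Within the wild-type line the GFP array stood low for the fibrillar collagens. Its signal was below that of the LacZ array at 16 of the 16 tested collagen probe sets, as it was at 52.6% of all tested probe sets. It was the lowest of the 6 wild-type-line arrays at 13 of the 16, and at 32.9% of all. Dixon's criterion, applied to the linear signals of the 6 arrays, set an array apart at 0 of the 18 collagen probe sets. Over the 13 tested probe sets of Col1a1, Col1a2, Col3a1, Col5a1, Col5a2 and Col5a3, its log2 values lay 0.31 to 1.60 under the median of the 6 arrays, with a median deviation of -0.60. K278* lay under that median at 12 of the 13 (49.7% of all tested probe sets), with a median deviation of -0.32. E824* (0.06), Q1430* (0.03), PREX2 wt (-0.03) and LacZ (0.16) had median deviations close to 0 or above it. Over all tested probe sets the median deviation of the GFP array was -0.011. The signal of the LacZ array was 1.28 times that of the GFP array at Col1a2 and 3.42 times at the second Col3a1 probe set. Both arrays are controls, so this spread enters each comparison with control vector.

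**Figure D3:**
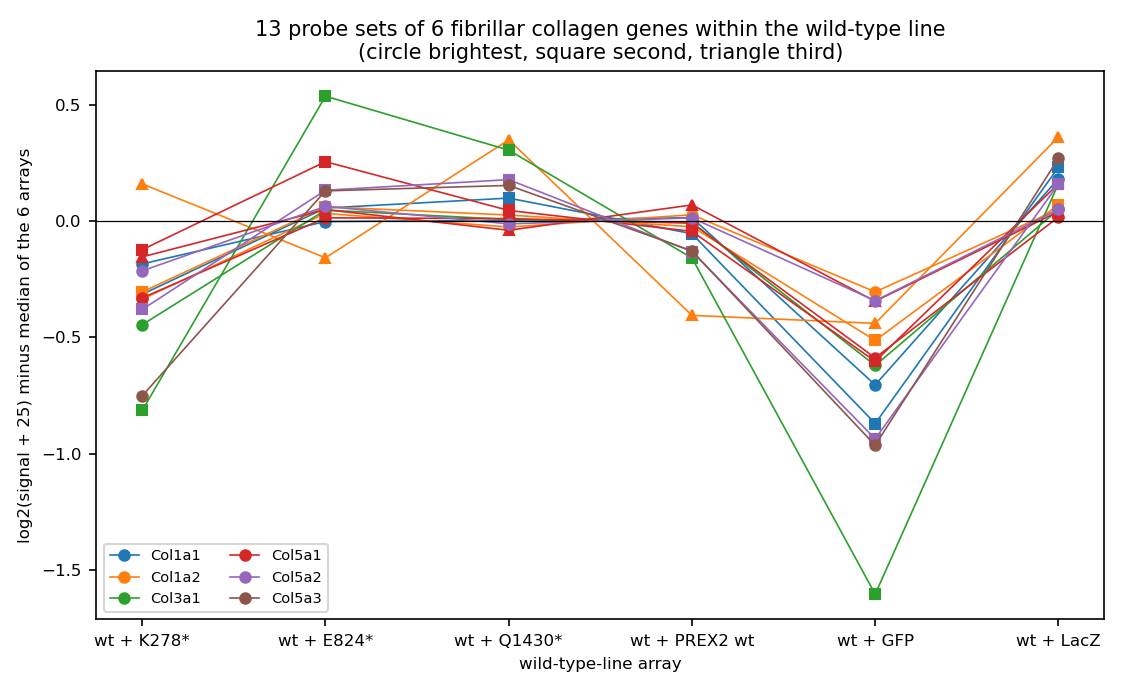
Deviation of log2(signal + 25) from the median of the 6 wild-type-line arrays (y axis) for 13 probe sets of 6 fibrillar collagen genes, with arrays along the x axis and 1 line per probe set. The GFP array lies below 0 at all 13, between -0.31 and -1.60, and K278* at 12 of the 13.

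Against this spread, truncated PREX2 did not change a tested collagen gene relative to control vector (0 of 8 by limma, where 0.00983% of all genes, or 1 gene, were called). Over all 19090 tested probe sets the median difference was 0.005, and limma gave an unadjusted p under 0.05 at 2.82%. Over the 16 collagen probe sets differences ran from 0.02 to 0.73 on the log2 scale, all of them above 0. At 1 of them the unadjusted p was under 0.05. That was Col11a1, at 0.60 (SE 0.24, 95% interval 0.05 to 1.15, adjusted p = 0.844 by limma), between signals of 22.3 to 32.8 with truncated PREX2 and 7.57 and 11.9 in control vector. Col1a1 differed by 0.20 (interval -0.37 to 0.77) and Col3a1 by 0.16 (interval -0.37 to 0.68). Without the GFP array the sign turned at the brightest probe sets of Col1a1 (-0.24), Col3a1 (-0.18), Col1a2, Col5a1, Col5a2 and Col5a3. It did not turn at Col11a1 or Col2a1. Col1a2 also changed sign without the E824* or the Q1430* array.

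Full-length PREX2, on 1 array, also changed 0 of 8 collagen genes relative to control vector (0.0% of all genes were called). Differences were -0.37 to 0.56 over the 16 probe sets, 13 of them above 0, and 0 had an unadjusted p under 0.05 by limma. Over all tested probe sets the median difference was 0.003, and 1.41% had an unadjusted p under 0.05. The interval was -0.49 to 1.04 for Col1a1, -0.29 to 0.60 for Col1a2 and -0.42 to 0.98 for Col3a1.

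Truncated against full-length PREX2 gave 0 of 8 genes called (0.0% of all genes), with differences of -0.14 to 0.87 over the 16 collagen probe sets. Col11a1 differed by 0.87 (SE 0.30, unadjusted p = 0.0211 and adjusted p = 1.0 by limma) at dim signals, 22.3 to 32.8 with the truncated forms and 3.75 with PREX2 wt. Its second probe set gave 0.50 (SE 0.56). The intervals were -0.80 to 0.65 for Col1a1, -0.56 to 0.28 for Col1a2 and -0.78 to 0.53 for Col3a1. These PREX2 comparisons share arrays with each other and with the line comparisons.

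Genes that build, process, bind, cut and regulate fibrillar collagens were counted from textbook lists. Of 21 tested genes for collagen biosynthesis, modification and export, 5 rose in the null line relative to control vector and 0 fell, with a median of 0.24, where 10.2% of all genes rose and 10% fell, with a median of -0.027. Plod2, which hydroxylates telopeptide lysines used in cross-links, rose most, with 1641 and 2123 on the null arrays, against 527 and 442 on the GFP and LacZ control arrays (log2 change 1.90, SE 0.17, limma adjusted p = 0.00059). The reconstituted array read 1337 at Plod2. Colgalt1, which adds galactose to hydroxylysine, rose by 1.16 (SE 0.13), and Crtap, a part of the prolyl 3-hydroxylase complex, by 1.07 (SE 0.11). Fkbp14, a folding enzyme of the endoplasmic reticulum, rose by 1.30 (SE 0.27), and P4ha2, a prolyl 4-hydroxylase subunit, by 1.06 (SE 0.18). Leaving out the GFP null array ended the calls of Fkbp14 (1.21) and P4ha2 (0.85), and leaving out the untransduced one that of Fkbp14 (1.38), which still passed at 0.85 when the GFP control array was absent. With the GFP null array absent 3 of the list passed as higher (3.1% of all genes did), and with the LacZ array absent 8 did (13.1%). Serpinh1, the collagen chaperone HSP47, did not pass (-0.05, SE 0.13). In all null-line against all wild-type-line arrays 7 of the 21 were higher and 2 lower, where 18.1% of all genes were higher and 19.9% lower. Those lower were P3h2 (-0.72) and Ppib (-0.26), both of the prolyl 3-hydroxylation machinery. Crtap (0.95) and P3h3 (0.71), of the same machinery, were among those higher.

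Of 8 tested genes for propeptide removal and cross-linking 1 rose and 1 fell in the null line relative to control vector, where 10.2% of all genes rose and 10% fell. Loxl3, a lysyl oxidase, rose by 0.84 (SE 0.14, limma adjusted p = 0.00712), and did not pass without the GFP null array (0.78). Pcolce2, an enhancer of C-propeptide removal, fell, with 160 and 229 on the null arrays, against 2977 and 920.0 on the GFP and LacZ control arrays (log2 change -2.96, SE 0.55, adjusted p = 0.0106), a call that was lost without the untransduced (-2.73) or the GFP null array (-3.19). Lox itself, at 26083 and 29527 on the null arrays, against 22304 and 28624 on the control arrays, did not pass (0.14, SE 0.17). Of 7 tested fibril-associated collagens and fibril nucleators, among them Fn1 (-0.03, SE 0.10) and Sparc (0.09, SE 0.16), 0 passed in either line comparison. Over all null-line against all wild-type-line arrays 18.1% of all genes were called higher and 19.9% lower. Of 5 tested collagen receptors and uptake genes Itgb1, the beta 1 integrin subunit, rose by 0.51 (SE 0.11) relative to control vector. That call was lost without the untransduced (0.62) or the GFP null array (0.41). Of 4 tested collagenases 0 passed, at a median of 0.46. Without the LacZ array the collagenase Mmp2 and the fibril-associated Col6a2 and Col12a1 passed as higher, as did 13.1% of all genes. Reconstitution and the PREX2 comparisons gave 0 calls in each of these lists.

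In the null line against control vector 10.2% of all genes rose and 10% fell, with a median of -0.027. Of 27 tested regulators of fibrillar collagen transcription 9 rose and 4 fell there, with a median of 0.24. Those with the largest changes were the AP-1 subunit Fos (5.56, SE 0.34), the zinc-finger factor Egr1 (4.35, SE 0.23), the inhibitory Smad7 (2.11, SE 0.41), the ligand Tgfb3 (1.30, SE 0.35) and the Smad repressor Skil (1.2, SE 0.27). Egr1 read 19640.2 and 22767 on the null arrays, against 904 and 1132 on the control arrays. These regulator calls rested on few arrays, and 2 of the list passed as higher when either null array was left out, as did 3.73% of all genes without the untransduced and 3.1% without the GFP one. Smad7 was then at 2.01 and 2.21, Tgfb3 at 1.56 and 1.05 and Skil at 1.29 and 1.1, without the untransduced and without the GFP array, and none of the 3 passed. Tgfb3 also missed the threshold without the GFP control array (0.81), and Skil without the LacZ array (0.87), while Fos and Egr1 passed throughout. Those that fell were Cebpb (-1.12), Nfyc (-0.83), a subunit of the CCAAT-binding factor NF-Y, the Y-box protein Ybx1 (-0.75) and the receptor Tgfbr1 (-0.69). Of these Nfyc did not pass without the GFP null array (-0.74), nor Tgfbr1 without the untransduced (-0.71) or the GFP null array (-0.66). Sox9, which drives Col2a1 and Col11a1 in cartilage, read 499.7 and 437 on the null arrays, against 614 and 641 on the control arrays, and did not pass (-0.41, SE 0.16, limma adjusted p = 0.126). In all null-line against all wild-type-line arrays 12 of the 27 were higher and 7 lower, where 18.1% of all genes were higher and 19.9% lower. Sox9 was among those lower (-0.46, SE 0.12, limma adjusted p = 0.018).

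**Figure D4:**
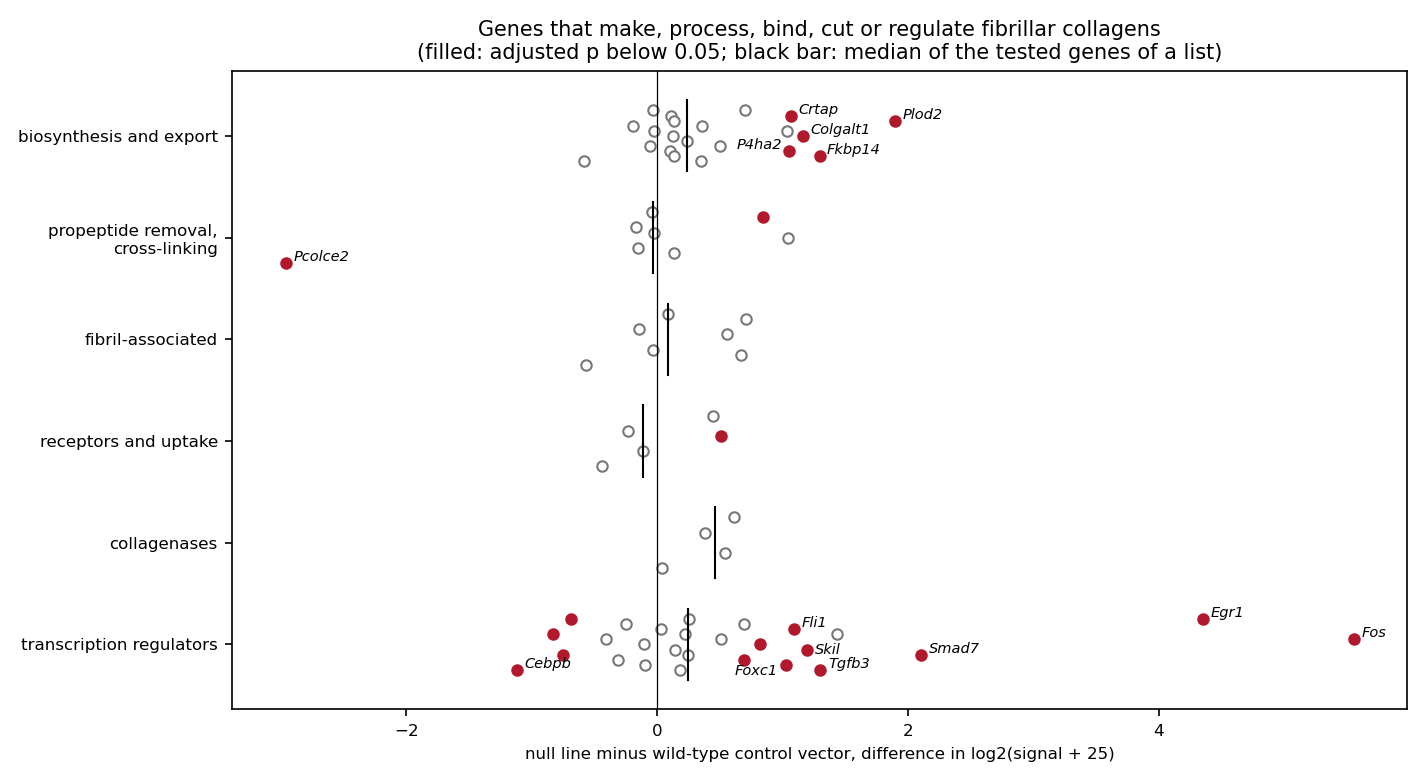
Difference in log2(signal + 25) of the null line minus wild-type control vector (x axis) for each tested gene of 6 lists (y axis; vertical scatter carries no value), filled where the limma adjusted p is below 0.05, with list medians as black bars. In biosynthesis and export 5 filled points lie above 0 and 0 below, and among transcription regulators 9 above and 4 below.

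Several related genes were too dim for the test and were chosen here after their values were seen. Adamts3, a protease that removes the N-propeptide of procollagens, read 271 on the reconstituted array and 231 and 168 on the null arrays, against 2.48 to 20.5 in the wild-type line. Col24a1, another fibrillar collagen, read 65.0 on the reconstituted array and 80.1 and 76.2 on the null arrays, against 0.573 to 22.0 in the wild-type line. Sox5, a partner of Sox9, read 150 on the reconstituted array and 69.8 and 80.6 on the null arrays, against 2.51 to 24.9 in the wild-type line. In a fit with no filter on signal, where 5.38% of all genes were called higher, they passed in the null line against control vector, with log2 changes of 2.33 for Adamts3, 2.0 for Col24a1 and 1.48 for Sox5 and limma adjusted p-values of 0.00591, 0.00279 and 0.0495. Col9a1, a fibril-associated collagen of cartilage, also passed there (0.91, adjusted p = 0.048), with 1.82 on the reconstituted array and 44.5 and 32.5 on the null arrays, against 5.55 to 24.2 in the wild-type line. It did not pass in all null-line against all wild-type-line arrays of that fit (0.19, limma adjusted p = 0.483). The other listed genes too dim for the test did not pass against control vector in the fit with no filter. Among these were Tgm2 (1.01), Sox6 (0.50) and Col9a3 (-0.22). Col27a1, also a fibrillar collagen and tested in the main fit, gave 1.33 (SE 0.45, adjusted p = 0.0795).

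Markers of cell types that make these collagens were read beside them, in the null line against control vector unless stated. In that comparison 10.2% of all genes were called higher and 10% lower. Of 14 chondrocyte markers 1, Sox9, was bright enough to test, and their summed signal, 60.5% of it from Sox9, was 854 to 933 in the null line, against 883 to 1123 in the wild-type line. Such sums mainly follow the brightest probe sets of a list. The cartilage proteoglycan Acan read 27.7 to 51.9 in the null line and 20.5 to 63.7 in the wild-type line, and Col9a2 and Col10a1 stayed under 25 on all 9 arrays. Other dim chondrocyte markers differed in all null-line against all wild-type-line arrays, fitted with no filter on signal. Sox5 (1.84) and Matn3 (0.67) passed there as higher, as did 10.9% of all genes, while Snorc (-0.66) and Matn1 (-0.55) did not pass. Of the 5 tendon markers 3 were tested and all 3 rose, although Tnmd averaged under 100 in the wild-type line and was tested only because of its null-line signals. Tnmd rose by 3.44 (SE 0.27), the fibril-binding proteoglycan Fmod by 3.14 (SE 0.86) and Mkx by 0.82 (SE 0.19), and the summed signal, 86.3% of it from Fmod and Mkx, was 2329.8 to 4236 in the null line, against 664 to 1158 in the wild-type line. The Fmod call was lost when the untransduced null array (3.47), the GFP null array (2.81) or the GFP control array (1.77) was absent, and that of Mkx without either null array (0.94 and 0.69) and without the LacZ array (0.63). Scx, the defining tendon factor, read 25.3 to 52.4 in the null line and 20.1 to 73.2 in the wild-type line. Of 14 fibroblast markers 1 rose, Pdpn (1.43), and 3 fell, Thy1 (-5.47), Dpt (-3.55) and Twist2 (-1.06), and the summed signal, 56.6% of it from Vim and S100a4, neither of which passed, was 92086 to 99312 in the null line, against 105889 to 132857 in the wild-type line. Thy1, which defines many fibroblasts, read 6.90 to 27.3 in the null line, against 1097 to 3641 in the wild-type line, whose signals alone brought it past the filter. The Twist2 call was lost without either null array (-1.0 and -1.12). Their part in the collagen differences was not tested.

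The genes whose profile over the 9 arrays was most like that of a collagen were found by the root mean square difference of centred log2 values, a description in which line dominates. For Col11a1 they were Cdkn2b (0.368), Plac8 (0.378), Fbln7 (0.386), Fos (0.441) and Zmpste24 (0.462). For Col2a1 they were Pla2g7 (0.395), Exo5 (0.448) and Foxp2 (0.508). For Col5a3 they were Pcsk6 (0.203), B3glct (0.214) and Esr1 (0.228), and for Col1a1 Lrrc75a (0.119), Tgfb2 (0.129) and Grk5 (0.131). Over the 6 wild-type-line arrays alone, the member closest to Col3a1 was Col5a1 at 0.0507 and the one closest to Col1a2 was Col5a2 at 0.0506. The closest of the 10169 genes outside the family were Dyrk2, at 0.0228 from Col3a1, and Amz2, at 0.018 from Col1a2. The closest members were picked from 7 genes, so their distances cannot be compared with these.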

How the data were processed

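Total RNA was amplified from its 3' ends and biotin-labelled, per the labels' protocols. The deposited intensity values are linear MAS5 signals, per the submitters' processing notes, with version and scaling target not given in the sources used here. All 9 arrays had a mean of 500 once the outer 2% on either side was trimmed. Genes were named from probe sets with a single symbol in the platform annotation. Signals were transformed as log2(signal + 25), so changes of dim probe sets are understated. A fit over all 9 arrays used limma 3.58.1 under R 4.3.3, with 5 groups, an intensity trend in the variance and 4 residual degrees of freedom. A group with 1 array borrows the spread of the others. P-values are two-sided, and intervals are at 95% with 7.41 total degrees of freedom. The number of arrays limits the precision. No detection calls were used here, so dim signals have no stated lower limit.

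The collagen genes and all lists were chosen with earlier results of these data known. Of each list up to 5 passing genes with the largest changes are named, beside genes with a stated role, and for likeness the first 3 to 5 genes for the 4 collagens with the widest range. Alternatives were offsets of 5 and 100, no filter or a minimum mean of 200, quantile normalization, no trend, a fit of the compared groups alone, leaving out each replicate, the second brightest probe set, and 2 sets of arrays left out after seeing the data. The fit was tested on simulated data. The labels name no batch.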

Additional observations from a re-analysis of the deposited data

How the results depend on the processing

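No paired analysis was possible because the labels carry no replicate numbers. Col11a1 stayed higher in the null line in both line comparisons under every alternative run, and 0 collagen genes were called in the 3 PREX2 comparisons under any of theirs. Against control vector 3 collagen genes were called; leaving out 1 array gave 2 to 5. With the wild-type GFP and K278* arrays absent it was 5, with both GFP arrays absent 1, and by the second brightest probe set 1 of 6 genes, since Col2a1 and Col5a3 have no second tested one. Over all null-line and wild-type-line arrays 3 were called, leaving out 1 array gave 3 to 6, and the same sets of arrays gave 6 and 5. Reconstitution, with 0 calls, had 3 among the null-line arrays alone and 1 without the wild-type GFP and K278* arrays. The cause was not tested. Beyond these, 536 single-gene values kept direction and side of the threshold, 21 passed it anew, 3 no longer passed and 36 changed sign, all of the last on changes that had not passed.

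Leaving out 1 array turned the sign in these ranges of log2 change. Null line against control vector gave -0.29 to 0.60 for Col1a1 and -0.63 to 0.037 for Col3a1. Reconstitution gave -0.023 to 0.10 for Col5a2 and -0.45 to 0.052 for Col5a3. Truncated PREX2 against control vector gave -0.24 to 0.64 for Col1a1, -0.16 to 0.20 for Col1a2, -0.18 to 0.49 for Col3a1, -0.12 to 0.49 for Col5a1, -0.10 to 0.29 for Col5a2 and -0.43 to 0.81 for Col5a3. Full-length PREX2 against control vector gave -0.17 to 0.72, -0.024 to 0.33, -0.055 to 0.62, -0.026 to 0.58, -0.037 to 0.36 and -0.40 to 0.84 for the same genes in that order. Truncated against full-length PREX2 gave -0.21 to 0.032 for Col3a1, -0.15 to 0.021 for Col5a1, -0.13 to 0.012 for Col5a2 and -0.18 to 0.27 for Col5a3.

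In the null line against control vector Col1a1 was -0.29 without the wild-type GFP and K278* arrays, and Col1a1 was -0.46 and Col5a2 -0.027 without both GFP arrays, where Col5a3 on reconstitution was 0.052. The second brightest probe set turned Col1a1 to -0.053 against control vector, Col5a1 to -0.009 over all arrays of the lines, and Col1a2 to -0.009 and Col5a2 to -0.25 on reconstitution. It also turned Col11a1 to 0.033 for full-length PREX2 against control vector, and for truncated against full-length PREX2 Col1a1 to 0.001, Col3a1 to 0.17, Col5a1 to 0.10 and Col5a2 to 0.11. Groups of 1 to 3 arrays limit every comparison, and probe sets with mean signals under 100 were not tested.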

Other observations

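Calls among contractile and other lineage markers are given for the null line against control vector, where 10.2% of all genes were called higher and 10% lower. Of 4 tested smooth muscle markers 3 fell in the null line relative to control vector and Acta2, smooth muscle actin, did not pass (-0.20, SE 0.092 by limma). Cnn1, calponin, read 96.0 and 60.4 on the null arrays, against 803 and 630 on the GFP and LacZ control arrays (log2 change -2.86, SE 0.29). Actg2 fell by 2.42 and Tagln by 0.97 on the log2 scale, and their list's summed signal, 72.4% of it from Acta2, was 33079 to 37521 in the null line, against 43109 to 52262 in the wild-type line. Of 2 tested adipocyte markers the fat-cell regulator Pparg rose (1.94, SE 0.26) and the fatty-acid carrier Fabp4 fell (-1.64, SE 0.19), with 0 called on reconstitution. The single tested osteoblast marker, Phex, fell by 2.26 on the log2 scale. Of 2 tested epithelial markers Krt19 fell by 1.70 and did not pass without the GFP null array (-1.42). Of 3 tested macrophage markers Csf1r fell by 0.76, a call lost without either null array (-0.73 and -0.78) or the LacZ array (-0.49), and the 1 tested endothelial marker did not pass. Cnn1, Phex and Krt19 averaged under 100 in the null line and Pparg under 100 in the wild-type line, so each was tested only because of its signals in the line where it is high.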
